A study of Mus musculus with 9 samples.

Results

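Nec-1 (necrostatin-1), an inhibitor of the kinase activity of RIPK1, was given to mouse small intestinal organoids, and mRNA levels with it in organoids labelled as given 4-hydroxytamoxifen (4-OHT) are described here from 3 of the 9 samples of the series. These are a single library labelled 4-OHT Nec-1 and, as its controls, the 2 libraries labelled 4-OHT DMSO, called the DMSO pair, chosen by their labels. Organoids came from Vil-CreERT2;Mettl3 fl/fl mice on a C57BL/6 background, males of 2 to 4 months, and all groups, controls included, carry this genotype. The Villin promoter restricts the CreERT2 recombinase to the intestinal epithelium, and 4-OHT activates it so that the floxed part of Mettl3, the catalytic subunit of the m6A RNA methyltransferase, is excised. Treatment was with EtOH, the solvent, or 4-OHT at 500 nM over 2 days, and with Nec-1 or its solvent DMSO over 5 days, in ENR medium, which contains EGF, Noggin and R-spondin. The Nec-1 concentration is stated as 5 µM in a figure legend of the study and as 10 µM in its methods. No group of Cre-negative organoids received 4-OHT, and whether the libraries of a group came from separate cultures is not given in the labels, so their spread may be technical. The remaining RNA-seq libraries, 2 labelled EtOH DMSO and 2 labelled EtOH Nec-1, served for comparison, and 2 CUT&Tag samples were not analysed here.

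Over the 12036 genes whose mean reached 1 FPKM (fragments per kilobase of transcript, scaled to the mapped fragments of the library) in the 3 libraries, the library labelled 4-OHT Nec-1 differed from both libraries labelled 4-OHT DMSO in both directions. Among protein-coding genes, many of those furthest above the DMSO libraries were enzymes of foreign compounds. Cyp1a1 led them, and Cyp2c and Cyp3a genes, carboxylesterases and glutathione S-transferases were among them. Of all 92 higher genes, 37 (40.2%) belonged to lists of detoxification and oxidant defence, where 1.04% of all genes compared did. The lower genes were, in equal number, genes of the interferon response and others. The others were led by Lysmd3, Lypd8, Tff1 and Ino80d among protein-coding genes. They also held genes of mucosal defence (Muc3, Nox1, Defa5) and of the injured or regenerating epithelium (Clu, Anxa1). Because 1 library was labelled 4-OHT Nec-1, this comparison has no replicate check and carries no p-value.

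The intestinal epithelium is the first tissue to meet foreign compounds in food. Its cells oxidise, reduce or hydrolyse such compounds with cytochromes P450, dehydrogenases and esterases, couple the products to glucuronic acid, sulfate or glutathione, and export them with ATP-driven pumps. Many of these genes are controlled by ligand-activated receptors, AhR for Cyp1a1, PXR and CAR for the Cyp3a, Cyp2b and Cyp2c families, and by the oxidant-responsive factor NRF2. The same epithelium defends itself with mucins, with defensins from Paneth cells, with oxidases that release hydrogen peroxide or superoxide, and with secreted proteins that bind bacteria, while a set of genes known from the fetal gut reappears in epithelium that is being repaired.

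Mettl3 (ENSMUSG00000022160) did not have a lower level under the 4-OHT label. It was at 2.70 and 2.71 FPKM in EtOH DMSO, at 3.72 and 4.14 FPKM in the DMSO pair labelled 4-OHT and at 3.36 FPKM in the library labelled 4-OHT Nec-1. The values cover the whole gene, so excision of its floxed part cannot be read from them, and groups are named below as the libraries are labelled. The epithelial markers Epcam, Cdh1, Vil1 and Cdx2 were between 96.4 and 431 FPKM with Nec-1. Of the defining markers of other cells, Ptprc, Cd3e, Adgre1, Col1a1, Col3a1 and Pdgfra were under 0.1 FPKM in every library. Pecam1 was at 0.111 to 0.132 FPKM in the libraries labelled 4-OHT, and Itgam was at up to 2.45 FPKM, in EtOH Nec-1. The summed FPKM of 24 immune marker genes was 36.1 and 39.8 in the DMSO pair labelled 4-OHT, 26.4 in that labelled 4-OHT Nec-1 and 7.70 to 9.94 in the EtOH libraries, and that of 22 fibroblast and endothelial genes was 9.70 to 14.5 throughout. Summed over genes, a library held 450207 to 498712 FPKM, and fragment counts, and so the depth behind a single value, are unknown. The spacing of low values gave relative depths of 0.853 to 1.03.

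A gene was counted as higher or lower when its log2(FPKM + 1) in the library labelled 4-OHT Nec-1 lay at least 1 unit above or below that in each library labelled 4-OHT DMSO. By this rule 146 genes were lower, 1.21% of those compared, and 92 were higher, 0.764%. Of the lower genes, 73 belonged to a list of interferon-response genes, and the other 73 were 0.618% of the 11820 genes outside that list. The DMSO pair labelled 4-OHT itself lay at least 1 log2 unit apart in 573 genes (4.76%), more than the pairs labelled EtOH DMSO (168 genes) and EtOH Nec-1 (126 genes). None of the 92 higher genes were among them, whereas 9 of the 73 lower genes outside the interferon list were. The median log2 difference from the mean of the DMSO libraries was 1.63 for the higher genes and -1.42 for the lower genes outside the list, beside -0.089 for all genes compared. With each library centred on its median, the median of all genes moved to 0.025 and the counts to 115 lower genes, 49 of them outside the list, and 119 higher genes, so that which group is larger depends on the scaling. Against the first DMSO library alone 241 genes were lower and 180 higher, and against the second alone 526 and 246.

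**Figure D1:**
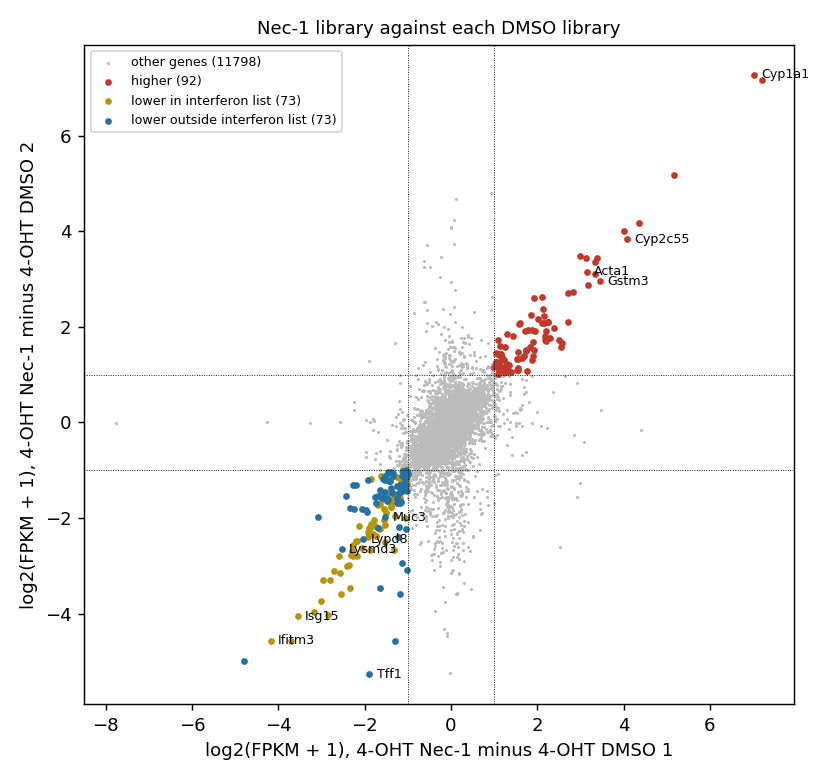
Difference in log2(FPKM + 1) of the library labelled 4-OHT Nec-1 from the first (horizontal) and second (vertical) library of the DMSO pair, 1 point per gene, with dotted lines at 1 log2 unit. The 92 higher genes lie close to the diagonal, whereas some of the 73 lower genes outside the interferon list, such as Tff1, lie far below it, since the second DMSO library was well above the first.

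The composition of the groups differed. Of the 92 higher genes 78 were protein-coding (84.8%), close to the 85.3% among all genes compared, and 5 were small RNAs (5.43%). Among the 73 lower genes outside the interferon list 45 were protein-coding (61.6%), 9 were small RNAs such as snoRNAs and microRNAs, 9 were pseudogenes, 9 had no RefSeq match and 1 was a lncRNA. Small RNAs were 1.19% of all genes compared. Of the 45 protein-coding genes 2 had DMSO libraries 1 log2 unit apart, against 9 of all 73. Another RefSeq gene overlapped 26 of the 73, a share that was not computed over all genes compared. Short RNAs such as Snord73a (listed at 0 with Nec-1, in Rps3a1) and Snord100 (in Rps12) lie inside ribosomal protein genes. At the threshold, Trex2 (-1.002) and Zfp260 (1.004) were the last genes counted and Clca3b (-0.997) and Gm48684 (0.996) the first not counted, by the smaller of their 2 log2 differences.

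Cyp1a1 (ENSMUSG00000032315), the monooxygenase known as the main target gene of AhR, was the protein-coding gene furthest above the DMSO libraries. It was at 0.322 and 0.103 FPKM in the DMSO pair labelled 4-OHT and at 169.8 FPKM in the library labelled 4-OHT Nec-1. The log2 differences from the DMSO libraries were 7.01 and 7.27. Of 10 AhR list genes compared, 8 lay above each DMSO library, where 24.5% of all genes did, 1 lay below each and 3 were counted as higher. Next to Cyp1a1 these were Nqo1, a quinone reductase shared with NRF2, and Gsta1. Ahr itself was at 3.70 and 3.57 FPKM in DMSO and 4.88 FPKM with Nec-1, and Tiparp, an AhR target that limits AhR activity, at 10.001, 11.5 and 14.7 FPKM in the same order. The median log2 difference of the list was 0.64, and it was 1.10 from the first and 0.35 from the second DMSO library.

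The Cyp2 and Cyp3 genes, whose products oxidise drugs, steroids and fatty acids, followed. Of 18 genes of this list, 16 lay above each DMSO library and 8 were counted as higher, with a list median of 0.94 on the log2 scale. Cyp2c55 was at 16.2 and 19.5 FPKM in the DMSO pair labelled 4-OHT and 290.4 FPKM with Nec-1, 16.3 times their mean. The related Cyp2c29, Cyp2c66, Cyp2c65 and Cyp2c68 reached 28.3, 196, 223 and 15.1 FPKM with Nec-1, against at most 2.32, 22.04, 88.7 and 6.63 FPKM in DMSO. For Cyp3a11, the main drug-oxidising CYP3A enzyme of the mouse, DMSO gave 2.43 and 2.30 FPKM and Nec-1 34.8 FPKM. Its neighbour Cyp3a25 was at 1.32 and 1.29 FPKM in DMSO and 22.6 FPKM in the library labelled 4-OHT Nec-1. For Cyp2c55, Cyp3a11 and Cyp3a25 the gap between the DMSO libraries was small beside the difference of Nec-1 from both. Cyp2b10, the usual reporter gene of CAR, was at 3.40 and 3.18 FPKM in DMSO and 18.6 FPKM with Nec-1, a log2 difference of 2.19. Neither receptor mRNA was counted, with Nr1i2 (PXR) at 22.8, 24.02 and 24.7 FPKM and Nr1i3 (CAR) at 3.26, 3.59 and 7.68 FPKM in the first DMSO, second DMSO and Nec-1 library. Cyp2e1 lay below each DMSO library, at 5.35, 7.44 and 4.30 FPKM. Of 2 proteins that pass electrons to these enzymes, Por was at 49.2, 49.5 and 62.4 FPKM and Cyb5a, which was counted as higher, at 58.1 and 76.4 FPKM in DMSO and 222 FPKM with Nec-1.

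Esterases and aldehyde-converting enzymes were the next group. All 11 carboxylesterase genes compared lay above each DMSO library, 5 were counted as higher, and their median log2 difference was 1.01. Ces2a, which hydrolyses esters and amides of many drugs, stood at 55.2 and 39.1 FPKM in the DMSO pair labelled 4-OHT and at 448 FPKM in that labelled 4-OHT Nec-1, 9.50 times their mean. Ces1f was at 27.1 and 36.2 FPKM in DMSO and 146 FPKM with Nec-1. Aldh1a1, which makes retinoic acid from retinaldehyde, was at 10.3 and 11.6 FPKM in DMSO and at 53.1 FPKM with Nec-1, and its close paralog Aldh1a7 at 8.02, 8.94 and 41.8 FPKM. In the list of retinol and aldehyde oxidoreductases 20 of 25 genes lay above each DMSO library, 3 below each and 4 were counted as higher, with Akr1c14 and Akr1c19 beside the 2 Aldh1a genes. Ephx1, the microsomal epoxide hydrolase, was at 38.6 and 49.6 FPKM in DMSO and 104 FPKM with Nec-1.

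Conjugating enzymes were higher in the same library. Of 12 UGT list genes, which couple glucuronic acid to their substrates or supply it, 11 lay above each DMSO library and 7 were counted as higher, and the list median of 1.22 log2 units was the highest of the lists with at least 5 genes. Ugt1a1, the bilirubin-conjugating form, was at 33.3 and 23.8 FPKM in DMSO and 101 FPKM with Nec-1. Ugt1a9 was at 0.161 and 0.313 FPKM in DMSO and 22.8 FPKM with Nec-1, but the Ugt1a genes share their last exons, so the division of fragments among them is uncertain. Of the Ugt2b genes counted, Ugt2b34 had the highest level, at 114 and 138 FPKM in DMSO and 293 FPKM with Nec-1. Ugdh, which makes the UDP-glucuronic acid they use, lay above each DMSO library without being counted, at 43.2, 39.8 and 83.7 FPKM. The sulfotransferase Sult1d1, at 31.2, 42.01 and 93.5 FPKM, was the single gene of its list counted.

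Of 25 glutathione S-transferase and glutathione synthesis genes, 20 lay above each DMSO library, 2 below each and 7 were counted as higher, with a median log2 difference of 0.67. Gstm3 was at 219 and 309 FPKM in the DMSO pair labelled 4-OHT and at 2393 FPKM in the library labelled 4-OHT Nec-1, 9.06 times their mean and among the highest levels of the higher genes. Gstm1, at 479 and 620.3 FPKM in DMSO, was at 2162 FPKM with Nec-1, and Gsta1, at 732 and 660.5 FPKM in DMSO, was at 2524 FPKM. All Gst genes counted were of the alpha and mu classes, and Gstp1 was at 1124, 997 and 1368 FPKM and Gstt1 at 11.6, 14.9 and 20.1 FPKM. Gclc, the catalytic subunit of the enzyme that limits glutathione synthesis, was at 48.1 and 58.9 FPKM in DMSO and 152 FPKM with Nec-1. Slc7a11, which imports the cystine for it, was at 4.81, 4.25 and 11.6 FPKM. Close paralogs within the Cyp2c, Ces1, Gstm, Gsta and Ugt2b families can share fragments, so single members of a family are less certain than the family.

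Among 24 NRF2 target genes, 21 lay above each DMSO library, 2 below each and 5 were counted as higher, with a median of 0.62 log2 units. Nqo1 was at 58.3 and 67.6 FPKM in DMSO and 220.4 FPKM with Nec-1. Gsr, Srxn1, Me1 and Cbr3, which regenerate glutathione, repair peroxiredoxins, supply NADPH or reduce carbonyls, had log2 differences of 0.62, 0.72, 0.71 and 0.89. Hmox1, a heme oxygenase also controlled by NRF2, was at 14.5 and 15.2 FPKM in DMSO and at 14.9 FPKM with Nec-1, between them, and Txn1 lay below each at 1139, 1155 and 931 FPKM. Catalase (Cat) was counted as higher, at 28.8 and 31.96 FPKM in DMSO and 74.9 FPKM with Nec-1, while most peroxiredoxins, glutathione peroxidases and superoxide dismutases differed by less than 0.5 log2 units. Of the efflux pumps, Abcc2, which exports glutathione and glucuronic acid conjugates to the lumen, was at 18.1 and 18.5 FPKM in DMSO and 81.7 FPKM with Nec-1. Abcb1a (P-glycoprotein) was at 33.1, 25.6 and 91.98 FPKM. Over the 8 lists of detoxification and oxidant defence together, 125 genes were compared (1.04% of all), 107 lay above each DMSO library, 11 lay below each, and 37 of the 92 higher genes (40.2%) belonged to them, with 0 of the lower genes. The lists were drawn up with earlier results of these data known, so this share is a description.

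**Figure D2:**
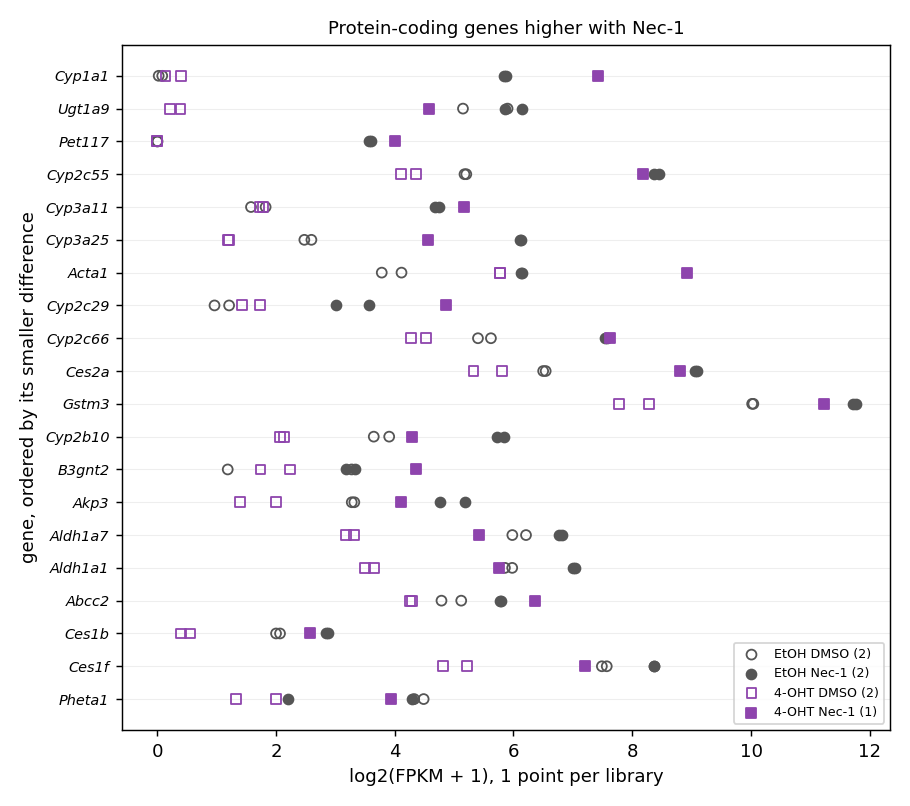
Level, as log2(FPKM + 1), of the 20 protein-coding genes with the largest smaller difference above the DMSO pair labelled 4-OHT, 1 point per library, squares for 4-OHT labels and circles for EtOH, filled for Nec-1 and open for DMSO. The filled square lies to the right of both open squares in every gene, and for the Cyp genes the filled circles lie right of the open circles as well.

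Other higher genes belonged to transport, lipid metabolism and the brush border. S100g (calbindin-D9k), which carries calcium through the enterocyte, was at 27.8 and 53.5 FPKM in DMSO and 172 FPKM with Nec-1. Scd1, a desaturase of fatty acid synthesis, was at 39.9, 37.7 and 94.3 FPKM, and Abcg8, a subunit of a sterol pump, at 8.11, 8.04 and 19.1 FPKM. Its partner Abcg5 lay above each DMSO library at 15.4, 13.6 and 28.05 FPKM. The intestinal alkaline phosphatase Akp3 was at 1.63 and 3.01 FPKM in DMSO and 16.3 FPKM with Nec-1, but the enterocyte list as a whole was evenly split, with 11 of 30 genes above and 12 below each DMSO library. Acta1, the skeletal muscle actin, was at 53.9 and 53.6 FPKM in DMSO and 484 FPKM with Nec-1. Lyz2, a lysozyme best known from myeloid cells, was at 0.677, 0.344 and 2.63 FPKM. The immune markers Ptprc, Cd3e and Adgre1 stayed under 0.1 FPKM. The immune marker Itgam was at 0.315 and 0.917 FPKM in DMSO and 1.31 FPKM with Nec-1, and at 1.19 to 2.45 FPKM in the EtOH libraries. Protein genes encoded by mitochondrial DNA were above each DMSO library in 12 of 13 cases, with a median log2 difference of 0.48 and none counted. Their part in the scaling of FPKM was not tested.

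Part of the higher genes lay beside related genes. On GRCm38.p6, 89 of the 92 could be placed, and 37 of these (41.6%) lay within 500 kb of another higher gene, in 11 groups. No such share was computed over all genes compared, so whether the shares given here are unusual is not known. The Cyp2c group on chromosome 19 (39006940 to 39741101) held 5 higher genes, which were all 5 genes compared in that interval. In the Gstm group on chromosome 3 (107938847 to 108045179) and the Ces1 group on chromosome 8 (93056725 to 93337209), 5 of 6 genes were counted in each. The Ugt2b group on chromosome 5 (86889770 to 87569006) had 6 of 8, with Sult1d1 beside the Ugt genes. Of the lower genes of the interferon list, 43 of 73 (58.9%) lay in 15 such groups, a larger share. Of 64 lower genes outside the interferon list that could be placed, 11 (17.2%) lay in 5 such groups, among them S100a14, S100a16 and S100a7a on chromosome 3 (90526849 to 90658130) and Defa5 with Defa-ps6 on chromosome 8.

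Hydroxysteroid and amine enzymes were counted as well. Hsd17b2, which inactivates oestradiol and testosterone, was at 23.99, 25.4 and 52.4 FPKM, Hsd17b13 of lipid droplets at 19.2, 22.4 and 47.3 FPKM, and Fmo5, a flavin monooxygenase, at 12.2, 12.5 and 28.9 FPKM. For Ildr1, a protein of tricellular junctions, the values were 8.26, 9.54 and 25.6 FPKM, and for Entpd5, a nucleotide hydrolase of the ER, 21.6, 24.2 and 51.8 FPKM. The carbohydrate transporter family gene Slc5a4b was at 0.924, 1.86 and 6.08 FPKM, and Slc9a3, the sodium-proton exchanger of the brush border, at 1.66, 1.31 and 4.52 FPKM. Over all 92 genes, the difference was at least 3 times as large as the gap within the DMSO pair in 77, and in 25 genes it reached 2 log2 units from each.

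Some higher genes are uncertain as single values. The mitochondrial tRNA gene mt-Ts2 was at 0.329, 0.368 and 195 FPKM in the first DMSO, second DMSO and Nec-1 library, but within EtOH DMSO it was at 0.323 and 232 FPKM. Gm10095, Gm8225 and Pet117 were listed at 0 or at most 0.000102 FPKM in both libraries labelled 4-OHT DMSO and at 35.1, 5.54 and 15.1 FPKM with Nec-1, respectively. Pet117 had the same split in EtOH organoids, at 0.000268 and 0.00458 FPKM in DMSO and 10.8 and 11.1 FPKM with Nec-1. Its limma log2 fold change there was 3.58 (limma adjusted p = 0.000243). Pet117 overlaps Kat14, and the snoRNA Snora33 lies in Rps12 and Snord14d in Hspa8. In all, 30 of the 92 higher genes overlap another RefSeq gene, a share not computed over all genes compared. Tmem170b and Zfp260 also varied within groups, Zfp260 from 0.836 to 7.24 FPKM in EtOH Nec-1.

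Promoters of the genes counted were searched on both strands for 5 short motifs, from 250 bases before to 50 bases after the RefSeq start sites, with sequences from the RefSeq GRCm38.p6 table. The motifs were the dioxin response element core GCGTG bound by AhR, the interferon-stimulated response element, written as GAAA and again GAAA after 2 open bases, the gamma-activated site TTCNNNGAA, the AP-1 site TGANTCA and the antioxidant response element TGACNNNGC bound by NRF2. TGANTCA with C at its open position shares its first letters with TGACNNNGC, so the last 2 can match at the same place. Windows were found for 66 higher genes, 34 lower genes outside the interferon list, 58 lower genes inside it and 8564 of all genes compared. GCGTG occurred in 25.8% of the higher genes and 57.0% of all, and TGACNNNGC in 15.2% and 17.1%, so neither was more frequent among the higher genes. The interferon-stimulated element occurred in 51.7% of the lower genes of the interferon list, 3.67% of all genes, 6.06% of the higher genes and in 1 of the 34 lower genes outside the list, which was Rbm43. TTCNNNGAA occurred in 12.1% of the higher genes, 11.8% of the lower genes outside the list, 13.8% of those inside it and 8.01% of all, and TGANTCA in 3.03%, 11.8%, 24.1% and 6.27%. The 4 stretches of 250 bases shown here were chosen as examples of a match in a higher gene, in an interferon gene and in the single lower gene outside the interferon list that had one. Each ends at the base before a RefSeq start site and is written 5′ to 3′ on the strand of the gene, with matches to the motif named in capitals. The first 2 are from higher genes, Cyp1a1 (chr9:57697363-57697612, plus strand, GCGTG at -54, before a start site inside the annotated gene span) and Abcc2 (chr19:43782058-43782307, plus strand, TGACNNNGC at -98). The others are from lower genes, Isg15 of the interferon list (chr4:156200819-156201068, minus strand, 3 overlapping matches to the interferon-stimulated element from -78) and Rbm43 outside it (chr2:51935164-51935413, minus strand, 2 overlapping matches on the opposite strand from -224).
Cyp1a1: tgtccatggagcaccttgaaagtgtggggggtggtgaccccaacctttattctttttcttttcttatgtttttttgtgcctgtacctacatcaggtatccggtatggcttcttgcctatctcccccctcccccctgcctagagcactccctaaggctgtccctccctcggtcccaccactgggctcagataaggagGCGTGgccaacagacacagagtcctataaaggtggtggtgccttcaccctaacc
Abcc2: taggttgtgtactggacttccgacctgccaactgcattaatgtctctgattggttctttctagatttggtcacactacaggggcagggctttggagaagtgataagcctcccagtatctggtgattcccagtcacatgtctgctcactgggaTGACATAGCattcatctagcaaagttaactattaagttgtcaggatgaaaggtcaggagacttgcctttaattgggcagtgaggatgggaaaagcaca
Isg15: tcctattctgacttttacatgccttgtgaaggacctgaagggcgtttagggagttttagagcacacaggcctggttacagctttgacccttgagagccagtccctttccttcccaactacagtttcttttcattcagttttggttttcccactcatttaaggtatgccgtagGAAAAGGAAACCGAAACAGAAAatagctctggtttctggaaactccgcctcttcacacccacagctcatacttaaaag
Rbm43: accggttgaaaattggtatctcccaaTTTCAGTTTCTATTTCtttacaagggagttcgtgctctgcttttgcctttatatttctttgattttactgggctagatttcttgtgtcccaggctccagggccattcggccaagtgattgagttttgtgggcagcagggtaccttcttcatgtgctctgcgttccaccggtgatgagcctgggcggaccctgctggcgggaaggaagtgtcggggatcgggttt
A match describes the letters in this window and not the binding of a factor.

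Several of the lower genes outside the interferon list act in mucosal defence. The list of Reg lectins and antimicrobial genes as a whole had 8 of 16 genes below each DMSO library, a share near the 50.6% of all genes, 2 above each and 3 counted as lower (Lypd8, Wfdc2 and Duoxa2). That of oxidases and antioxidant enzymes was split into 12 of 26 below and 12 above each, with Nox1 and Duoxa2 counted as lower and Cat and Maob as higher. Lypd8, an epithelial protein secreted into the lumen that binds flagellated bacteria, was at 3051 and 4071 FPKM in the DMSO pair labelled 4-OHT and at 745 FPKM in that labelled 4-OHT Nec-1, so that the mean of the DMSO libraries was 4.78 times the Nec-1 level. The membrane-bound mucin Muc3 was at 213 and 292 FPKM in DMSO and 73.2 FPKM with Nec-1. Defa5, a Paneth cell defensin, was at 399 and 423 FPKM in DMSO and 168 FPKM with Nec-1. In EtOH DMSO these genes were at 561 and 536, 22.8 and 25.4, and 88.4 and 75.4 FPKM, under the level of every library labelled 4-OHT. Wfdc2, a secreted protease inhibitor with antibacterial activity, was at 21.2, 17.7 and 6.06 FPKM. Of the oxidase genes, Nox1, which makes superoxide, was at 8.79 and 4.25 FPKM in DMSO and 0.812 FPKM with Nec-1, and was under 0.1 FPKM in the 4 EtOH libraries. Duoxa2, which brings the hydrogen peroxide-producing Duox2 to the cell surface, was at 77.5 and 93.4 FPKM in DMSO and 37.05 FPKM with Nec-1, and Duox2 itself lay below each DMSO library at 24.99, 27.03 and 16.002 FPKM. Other defence genes were close to the DMSO levels. Reg3g, a lectin that kills Gram-positive bacteria, was at 128, 97.2 and 128 FPKM and the immunoglobulin transporter Pigr at 364, 359.8 and 373 FPKM.

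Genes of the regenerating or fetal-like epithelium formed another group. Of 31 genes in this list 26 lay below each DMSO library, where 50.6% of all genes did, and 1 lay above each. The median difference of the list was -0.75 on the log2 scale, and 4 genes were counted as lower (Clu, Anxa1, Ly6a and Ly6e). The last 2 of these are also interferon-response genes. Clu, the marker of revival stem cells that appear after injury, was at 46.4 and 24.6 FPKM in the DMSO pair labelled 4-OHT, 9.28 FPKM with Nec-1 and 4.75 and 6.69 FPKM in EtOH DMSO. The DMSO pair was apart for Clu, but Nec-1 lay below both. Anxa1 was at 42.7 and 32.9 FPKM in DMSO and 15.6 FPKM with Nec-1. S100a6, S100a11, Anxa3 and Anxa5 lay below each DMSO library, with log2 differences of -0.95, -0.76, -0.81 and -0.75, and were not counted. Ereg, an EGFR ligand, was above each at 19.7, 21.7 and 25.03 FPKM, and Areg was at 533, 621 and 508 FPKM. Cd44, a hyaluronan receptor of crypt cells, was at 18.05 and 18.98 FPKM in DMSO and 8.10 FPKM with Nec-1. Ly6d was at 16.2, 18.4 and 5.19 FPKM, and both Cd44 and Ly6d are outside the regenerating or fetal-like list.

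**Figure D3:**
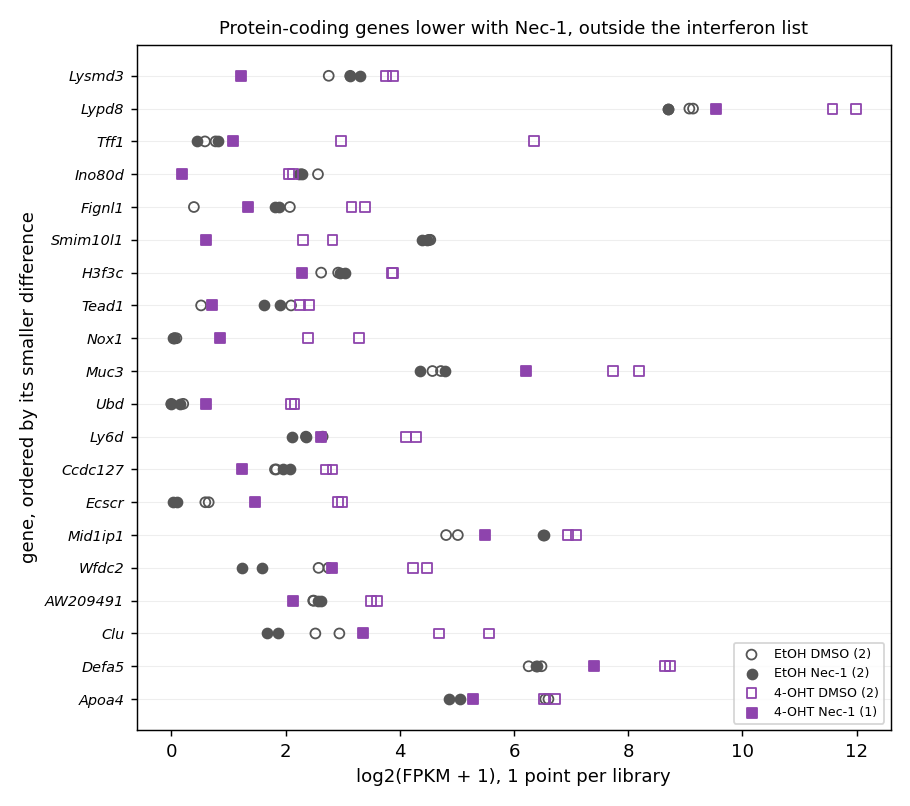
Level, as log2(FPKM + 1), of the 20 protein-coding genes outside the interferon list with the largest smaller difference below the DMSO pair labelled 4-OHT, with symbols as in the plot of the higher genes. For Lypd8, Muc3, Nox1, Ecscr and Defa5 the filled square lies between the EtOH circles and the open squares, whereas for Ino80d and Smim10l1 it lies below all other points.

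Secretory and crypt markers differed less. Of 25 Paneth cell genes 21 lay below each DMSO library, where 50.6% of all genes did, and 1 above. The median log2 difference was -0.42 and 1 gene was counted, Defa5. Of the fixed Paneth cell markers, Lyz1 and Ang4 had log2 differences of -0.09 and -0.07, and Mmp7 and Defa24 of -0.68 and -0.50. Of 25 goblet and mucus genes 20 lay below each and 3 were counted, Muc3, Bcas1 and Tff1, with a median of -0.29, while Muc2 was at 44.9, 43.2 and 33.2 FPKM. Fewer cells of a type and less RNA per cell cannot be told apart in these bulk libraries. Olfm4, a marker of crypt base stem cells, was at 15.7 and 9.22 FPKM in DMSO and 3.42 FPKM with Nec-1, and at 24.3 and 21.4 FPKM in EtOH DMSO. Ascl2, a stem cell transcription factor, was at 2.003, 1.32 and 0.199 FPKM, and Sox9 at 9.88, 9.36 and 4.73 FPKM. Lgr5, under 1 FPKM in the 3 libraries, was not compared. The crypt stem cell list as a whole had 9 of 18 genes below each DMSO library, a share near the 50.6% of all genes. Its median was -0.20, and -0.06 from the second DMSO library.

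Most cell cycle genes were lower with Nec-1 by small amounts. Of 44 genes 41 lay below each DMSO library, where 50.6% of all genes did, and 1, Cdt1, above each. The median log2 difference was -0.49, and it was -0.63 from the first and -0.34 from the second DMSO library. The single gene counted was Foxm1, a transcription factor of mitotic genes, at 7.03 and 5.03 FPKM in DMSO and 1.79 FPKM with Nec-1. Aurkb was at 11.997, 9.09 and 5.71 FPKM, Mcm6 at 18.2, 14.2 and 10.01 FPKM and Mki67 at 28.2, 22.5 and 19.9 FPKM. In EtOH organoids 38 of the 44 lay below both DMSO libraries with Nec-1, where 39.3% of all genes did, with a median of -0.43. Fignl1, a factor of homologous recombination at 9.54, 7.91 and 1.54 FPKM, and the histone genes H3f3c and Hist1h4h were counted as lower outside this list.

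Further lower genes act in signalling, adhesion and lipid metabolism. Il1rn, the IL-1 receptor antagonist and the single NF-kB and TNF list gene counted, was at 8.54 and 20.8 FPKM in DMSO and 3.65 FPKM with Nec-1, with its DMSO libraries far apart. Of the 21 genes of that list 18 lay below each DMSO library, where 50.6% of all genes did, with a median log2 difference of -0.32. Ubd, a ubiquitin-like modifier known to respond to TNF and interferon gamma, was at 3.46, 3.26 and 0.521 FPKM. Ctnnd1 (p120-catenin), which stabilises E-cadherin, was at 64.6 and 64.3 FPKM in DMSO and 29.4 FPKM with Nec-1. Tead1, a DNA-binding partner of YAP, was at 4.31, 3.75 and 0.635 FPKM, but it varied between 0.436 and 3.28 FPKM within EtOH DMSO. Apoa4, an apolipoprotein of chylomicrons, was at 104 and 90.7 FPKM in DMSO and 38.004 FPKM with Nec-1. Mid1ip1, which promotes fatty acid synthesis, was at 122 and 134 FPKM in DMSO and 43.9 FPKM with Nec-1. The lipid lists as a whole were not lower. In the lipogenesis list 14 of 18 genes lay above each DMSO library and 2 below each, with a median log2 difference of 0.15. For apolipoproteins and chylomicron assembly 11 of 23 lay above each and 9 below each, with a median of 0.019. Among all genes 24.5% lay above each. Lysmd3, a membrane protein with a LysM domain, was at 12.5 and 13.8 FPKM in DMSO and 1.34 FPKM with Nec-1, and the 4 EtOH libraries were at 5.76 to 8.89 FPKM. Ino80d, a subunit of a chromatin remodeller, was at 3.38, 3.15 and 0.140 FPKM, and Smim10l1 at 3.97, 6.08 and 0.527 FPKM against 21.8 and 22.2 FPKM in EtOH DMSO. Fam111a, a protease acting at DNA replication forks, was at 17.97, 17.7 and 7.61 FPKM, and Gcnt2, which branches glycan chains, at 7.88, 6.595 and 2.51 FPKM. S100a14 and S100a16, calcium-binding proteins of epithelia, were at 66.1, 74.5 and 29.9 FPKM and at 44.01, 48.01 and 18.8 FPKM.

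Some genes of the stomach were much higher in the second library of the DMSO pair than in the first. Tff1, Gkn1, Gkn2 and Tff2, secreted by the gastric surface and glands, were at 80.6, 10.04, 20.2 and 12.6 FPKM in the second library of the DMSO pair. The first had 6.85, 0.252, 0.0666 and 0.0924 FPKM, and the library labelled 4-OHT Nec-1 had 1.12 FPKM of Tff1, 0.244 of Gkn1 and listed the other 2 genes at 0. The median of the 15 genes of this list was -0.96 on the log2 scale, but -0.24 from the first DMSO library and -1.08 from the second. Tff1 was the only one of these 4 genes counted as lower. It lay -1.89 log2 units from the first DMSO library, which set its count, and -5.27 from the second. Anxa10 and Ctse, by contrast, lay below both, at 50.7, 57.1 and 26.5 FPKM and at 1.298, 1.81 and 0.305 FPKM.

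**Figure D4:**
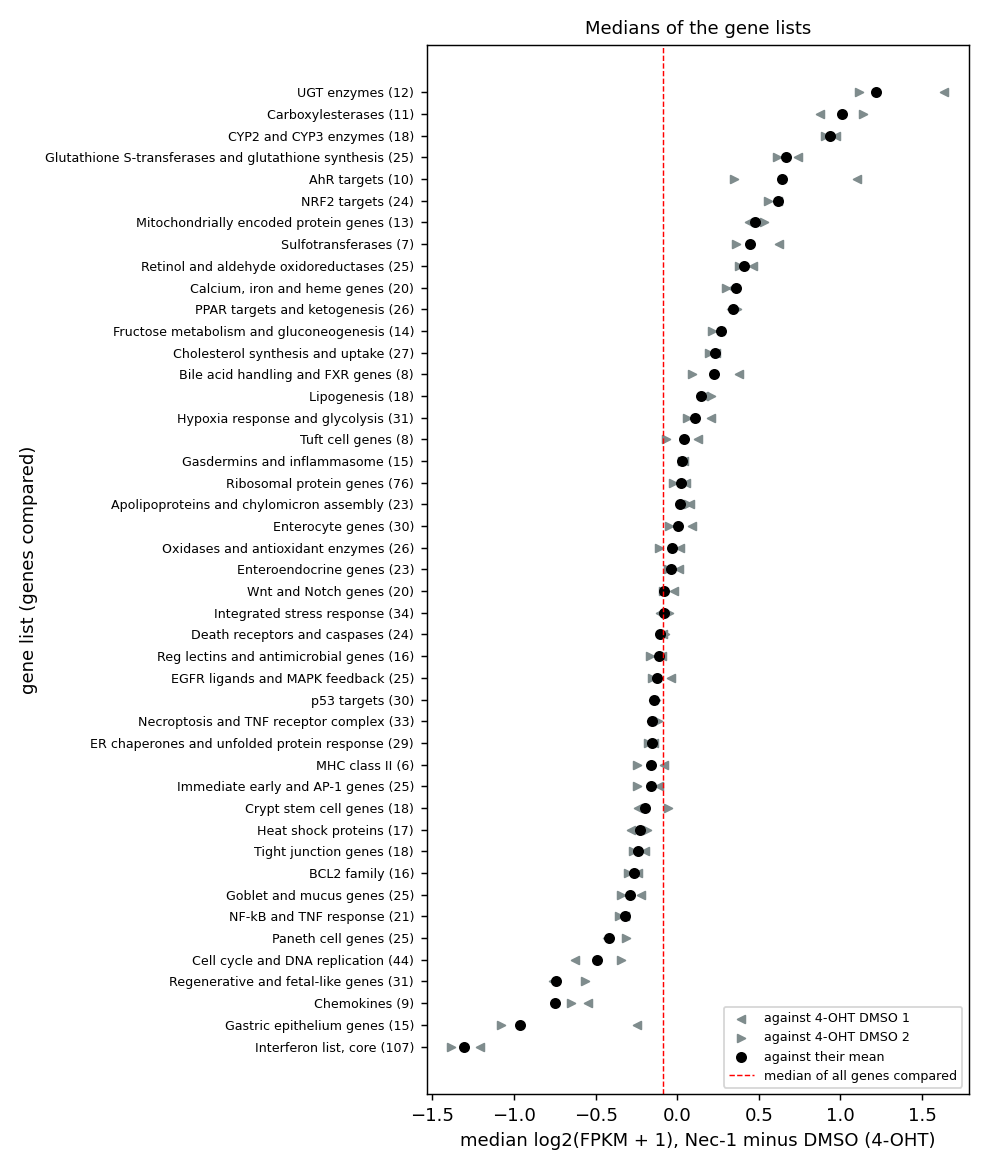
Median difference in log2(FPKM + 1) of the library labelled 4-OHT Nec-1 from the DMSO pair labelled 4-OHT for each gene list with at least 5 genes compared, against the mean of the DMSO libraries (black) and against each (grey triangles), with the median of all genes dashed. Lists of detoxification lie at the top, up to 1.22 for UGT enzymes, and the core interferon list at the bottom at -1.31, and the triangles are far apart for the gastric list.

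The interferon list and the genes of cell death complete the comparison. Of 107 genes of the core interferon list 105 lay below each DMSO library and 59 were counted as lower, with a median of -1.31. Some lower genes outside the list lie inside interferon genes. The pseudogene Gm6548 overlaps Eif2ak2 and was at 25.3, 26.5 and 12.1 FPKM, and Mir6386 overlaps Plscr1. Ripk1 itself was at 8.32, 8.26 and 7.84 FPKM. Of the genes through which RIPK1 acts, Ripk3 was at 44.8, 57.2 and 45.2 FPKM, Casp8 at 46.8, 54.2 and 43.4 FPKM and Cflar at 4.91, 4.74 and 4.12 FPKM. Of 33 genes of necroptosis and the TNF receptor complex 24 lay below each DMSO library, where 50.6% of all genes did. Their median was -0.16, and 1 was counted as lower. Zbp1, counted as lower within the interferon list, was at 8.09, 10.1 and 0.891 FPKM. Mlkl, the effector of necroptosis, was at 13.1 and 17.9 FPKM in DMSO and 7.85 FPKM with Nec-1, and Tnf, the cytokine, at 13.6 and 13.9 FPKM in DMSO and 7.06 FPKM with Nec-1. Both lay below each DMSO library and neither was counted. Atf3, a stress transcription factor, was at 11.4, 10.8 and 9.001 FPKM and Jun at 22.4, 21.2 and 23.003 FPKM.

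In the EtOH organoids the effect of Nec-1 can be tested. The levels compared come from other libraries than those that chose the genes, but the spread was estimated over all groups, the DMSO pair labelled 4-OHT included, so the test is not wholly independent of the choice. With limma on all 7 libraries 28 of 12702 genes (0.22%) passed an adjusted p of 0.05 (Benjamini-Hochberg) between EtOH Nec-1 and EtOH DMSO, 22 of them higher (0.173%) and 6 lower (0.0472%), and 1689 had an unadjusted p under 0.05. Of the 92 genes higher in the library labelled 4-OHT Nec-1, 89 were tested and 18 rose in EtOH organoids, which is 19.6% of the higher genes and 81.8% of the genes called higher there. Without a correction 62 were higher at a limma p under 0.05, a direction not counted separately over all genes. In 67 of the 92, both EtOH Nec-1 libraries lay above both EtOH DMSO libraries, where 10.4% of all genes did. Cyp1a1 rose from 0.0180 and 0.0610 FPKM in EtOH DMSO to 57.4 and 55.996 FPKM in EtOH Nec-1, a limma log2 fold change of 5.80 with a standard error of 0.11 (adjusted p = 9.25e-05). In the limma fit Cyp3a25 rose by 3.58 log2 units (standard error 0.08, adjusted p = 0.000127) and Cyp2c55 by 3.22 (standard error 0.11, adjusted p = 0.000537). Ces2a, Gstm3, Gsta1, Aldh1a1, Cyp2b10, Scd1, Hsd17b2 and Acta1 were among the others, with log2 fold changes from 0.97 for Hsd17b2 to 2.55 for Ces2a. The genes called higher in EtOH organoids but not counted here were Exosc6, Mid1ip1, Mt2 and Tnfaip1. Of the higher genes, Gm10095 was called lower there. Leaving out any 1 of the 4 EtOH libraries left 9 to 14 calls, 5 to 9 of them among the higher genes, the fewest without the first or second EtOH Nec-1 library, and a fit of the 4 EtOH libraries alone, which does not use the DMSO pair, gave 87 and 40.

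Levels with Nec-1 under both labels were close for some detoxification genes and apart for others. Cyp2c66 was at 184 and 189 FPKM in EtOH Nec-1 and 196 FPKM in the library labelled 4-OHT Nec-1, and Cyp2c65 at 218, 238 and 223 FPKM. Cyp1a1 was at 169.8 FPKM in the library labelled 4-OHT Nec-1 and at most 57.4 FPKM in EtOH Nec-1, and Acta1 at 484 and at most 69.7 FPKM. By contrast Ces1d was at 8.31 FPKM in that library and 103 and 107 FPKM in EtOH Nec-1, and Akr1c14 at 11.7, 92.2 and 92.8 FPKM. Some higher genes had a lower level in the DMSO pair than without 4-OHT. Maob was at 33.3 and 32.8 FPKM in EtOH DMSO, 3.65 and 3.85 FPKM in 4-OHT DMSO and 9.70 FPKM in the library labelled 4-OHT Nec-1, and 33.4 and 32.9 FPKM in EtOH Nec-1 (limma log2 fold change in EtOH 0.01, adjusted p = 0.986). Ugt1a9 was at 58.7 and 34.5 FPKM in EtOH DMSO. Of the 92 higher genes 56 were above both EtOH DMSO libraries with Nec-1 under the 4-OHT label and 25 under both, where 43.3% and 40.9% of all genes were. These comparisons use the single library labelled 4-OHT Nec-1, or the DMSO pair labelled 4-OHT, which chose the genes, so no test is given.

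**Figure D5:**
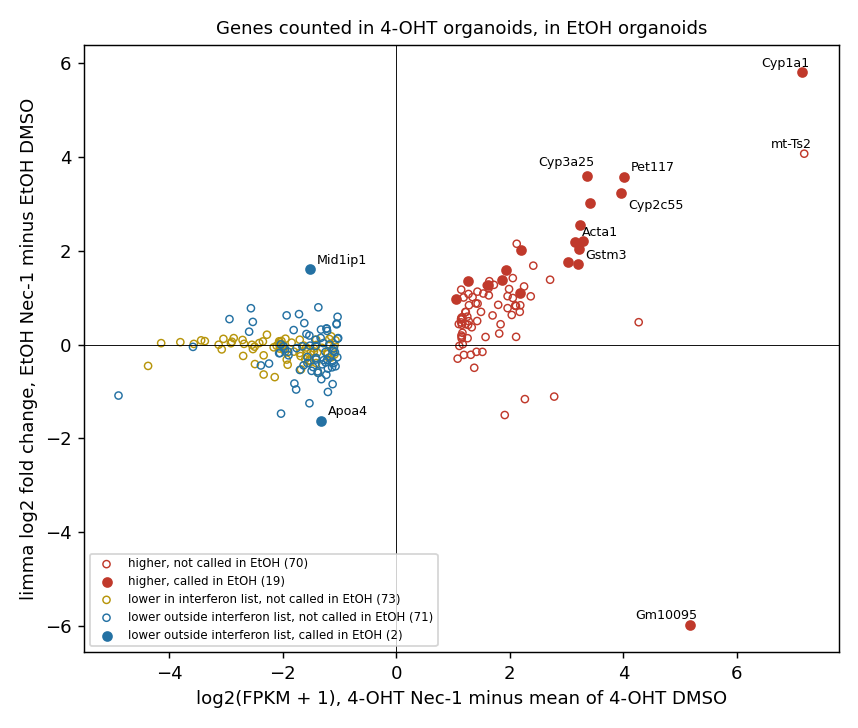
Log2 difference of the library labelled 4-OHT Nec-1 from the mean of the DMSO pair labelled 4-OHT (horizontal) against the limma log2 fold change of Nec-1 in EtOH organoids (vertical) for the genes counted, filled where the limma adjusted p was under 0.05. Most higher genes lie above 0 on the vertical axis, with 19 filled, Gm10095 among them far below 0, while the lower genes scatter around 0, with Apoa4 below and Mid1ip1 above.

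Of the lower genes outside the interferon list 2 passed the test in EtOH organoids, in opposite directions. All 73 were tested, and Apoa4 fell from 96.2 and 92.6 FPKM in EtOH DMSO to 32.2 and 27.9 FPKM in EtOH Nec-1 (limma -1.62 on the log2 scale, standard error 0.11, adjusted p = 0.0102 with Benjamini-Hochberg adjustment). Mid1ip1 rose instead, from 27.1 and 31.4 to 90.5 and 91.2 FPKM (limma 1.61 on the log2 scale, standard error 0.10, adjusted p = 0.00788). Before correction, 16 were lower and 2 higher at an unadjusted limma p under 0.05. Over all 12702 genes tested 1689 passed that cut in either direction, which were not split by direction. In 29 of the 73, both EtOH Nec-1 libraries lay below both EtOH DMSO libraries, a share near the 39.3% of all genes. Lypd8, at 414 and 414 FPKM in EtOH Nec-1, had a log2 fold change of -0.41 there (limma adjusted p = 0.354), and Muc3 one of -0.08 (limma adjusted p = 0.909). Whether the response of these genes to Nec-1 differs between EtOH and 4-OHT organoids was not tested. With Nec-1 under the 4-OHT label 21 of the 73 were above both EtOH DMSO libraries and 33 under both, where 43.3% and 40.9% of all genes were, so that the share under both is near that of all genes. Muc3, Nox1, Duoxa2, Anxa1, Cd44 and Trex2 were among those above, and Olfm4, Apoa4, S100a16 and Ctnnd1 among those under both.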

How the data were processed

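Bulk RNA-seq of organoids was measured in 7 libraries: 2 EtOH DMSO, 2 EtOH Nec-1, 2 4-OHT DMSO and 1 4-OHT Nec-1, grouped by their labels. The submitters' processing notes name HISAT2 2.1.0, StringTie 1.3.3b and mm10, and the version of the annotation is not given in the sources used here. The authors deposited FPKM per gene and library for 54838 genes, of which 54723 carry a symbol, and no fragment counts, so no count model or counting interval was possible. All sample columns were matched to a sample.

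The members and gene lists were chosen with earlier results of these data known. FPKM was compared as log2(FPKM + 1), which understates differences of low genes. In the 4-OHT comparison, genes whose mean over the 3 libraries reached 1 FPKM were kept, and those at least 1 log2 unit from each DMSO library, in the same direction, were counted. The interferon list holds 140 core and 195 further symbols and 17 name prefixes, and 46 lists were compared by counts and medians. Genes were named if they were among the 20 lower genes outside the interferon list or the 20 higher genes with the largest smaller difference, list members counted, up to 4 further members per list with the largest difference, fixed cell type markers, or genes the study discusses. Other genes named, mostly as contrasts with small differences or as further examples of the genes counted, were chosen after their values were seen.

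EtOH Nec-1 was compared with EtOH DMSO by limma 3.58.1 (trend, R 4.3.3) with Benjamini-Hochberg adjustment, on genes with 1 FPKM in at least 2 of the 7 libraries, with all groups sharing 3 residual degrees of freedom. P-values measure only the spread between these libraries. The script was tested on simulated data. Gene positions, biotypes and promoters came from RefSeq GRCm38.p6 tables, the same build as mm10, matched by symbol. Python 3.11.15, numpy 2.4.6, pandas 2.3.3 and matplotlib 3.10.9 were used.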

Additional observations from a re-analysis of the deposited data

Results flagged for a closer look

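For 2 of the genes counted, every EtOH Nec-1 library lay on the opposite side of every EtOH DMSO library from that seen under the 4-OHT label, by at least 1 log2 unit in both comparisons. Mid1ip1 rose with Nec-1 in EtOH organoids (1.61 on the log2 scale, limma) and differed by -1.52 log2 units from the mean of both libraries labelled 4-OHT DMSO in the single Nec-1 library with that label. Gm10095, a pseudogene that overlaps Gm51955, had a limma log2 fold change of -5.96 in EtOH organoids and a log2 difference of 5.17 under the 4-OHT label. It was listed at 0 in both libraries labelled 4-OHT DMSO and in the first EtOH Nec-1 library. Whether the effect of Nec-1 on these genes differs between EtOH and 4-OHT organoids was not tested, since only 1 library was labelled 4-OHT Nec-1. With smaller differences allowed, 7 higher genes, 10 lower genes outside the interferon list and 8 lower genes inside it lay opposite in every EtOH pairing.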

How the results depend on the processing

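The numbers of genes counted depended on the threshold and on the treatment of low values, and in most cases the cause was not tested. From 146 lower genes, 73 of them outside the interferon list, a pseudocount of 0.1 gave 255 and 168, a pseudocount of 0.25 gave 232 and 146, and a mean of at least 5 FPKM gave 97 and 39, as fewer genes were compared. Taking 1 log2 unit from the mean of the DMSO libraries gave 314 and 229 lower and 158 higher genes, and 2 log2 units from each gave 27, 3 and 25. Restricting to protein-coding genes, an alternative chosen after seeing the data, left 45 lower genes outside the list. Leaving out a 4-OHT DMSO library gave 241 to 526 lower genes, 163 to 430 outside the list, and 180 to 246 higher genes. Centring each library on its median split the genes counted into 115 lower and 119 higher, against 146 and 92, and upper quartile scaling into 120 and 115. In EtOH organoids the 28 limma calls became 8 with no filter on low values and 87 with the 4 EtOH libraries alone, and the 18 among the higher genes became 6 and 40. Leaving out an EtOH library gave 9 to 14 calls and 5 to 9 among the higher genes, with the lone library of a group assumed to vary like the others. None of the genes counted reversed direction under the alternatives run for them. The rule that chose them, at least 1 log2 unit from each 4-OHT DMSO library, all but fixed this in advance for the 4-OHT comparison. It is therefore no check of their direction. Genes named without being counted were not run, and small differences such as those of Lyz1 and Ang4 carry no direction. Of the list medians, 9 near 0 changed sign, and no direction is read from them. With centring, the median log2 difference of enteroendocrine genes went from -0.041 to 0.074, death receptors and caspases from -0.11 to 0.0078, the integrated stress response from -0.082 to 0.032, Reg lectins and antimicrobial genes from -0.11 to 0.0047, oxidases and antioxidant enzymes from -0.030 to 0.085, and Wnt and Notch genes from -0.081 to 0.034. Without the first DMSO library enterocyte genes went from 0.0045 to -0.052, tuft cell genes from 0.044 to -0.068 and ribosomal protein genes from 0.023 to -0.028. Without the second, enteroendocrine genes came to 0.014 and oxidases to 0.018.

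Libraries of different groups that share a number did not deviate together (correlations of -0.040, 0.0065 and -0.012). With 2 libraries in a group, this cannot show whether a shared number marks a shared culture or batch. With the replicate number as a block limma called 19 genes in EtOH organoids, 12 of them among the higher genes. No paired analysis was possible for the 4-OHT comparison because its groups share fewer than 2 replicate numbers.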
